A study of Mus musculus with 4 samples.

Results

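The peaks described here are the ARID1A peaks of mouse 266-6 cells that overlap chr16:85700000-87300000 (mm9), a stretch of 1.6 Mb named after 2 genes near its start, Adamts1 and Adamts5. The 4 deposited peak lists held 37 such peaks of 11220 in all. Control replicate 1 held 10 of its 4031 peaks there, control replicate 2 held 24 of 7112, EGF replicate 1 held 2 of 57 and EGF replicate 2 held 1 of 20. The region was chosen on these same lists, because it holds 1 site listed in all 4 of them and a group of 4 shared control peaks with no peak in either EGF list. Both patterns are therefore the choice itself and are described with no test.

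The study mapped ARID1A in 266-6 cells, a pancreatic acinar line of the mouse, with and without epidermal growth factor (EGF), by chromatin immunoprecipitation and sequencing (ChIP-seq). Cells of both groups were grown with 4.5 g/L glucose and 10% fetal calf serum and then kept without serum for about 14 h. The EGF group received 40 ng/ml EGF for 8 h and the control group 0.1% BSA (bovine serum albumin), with 2 libraries in each group. The labels do not say whether replicate libraries are of different cultures, so the spread between them may be technical. All cells are of 1 tumour-derived line, and peak lists carry no RNA values against which the labelled acinar identity could be checked.

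ARID1A is a subunit of the canonical BAF form of the SWI/SNF complexes, which use ATP to slide or evict nucleosomes, and it is known for acting at enhancers and promoters. Adamts1 and Adamts5 encode secreted metalloproteases with thrombospondin repeats. Both cut proteoglycans of the extracellular matrix such as aggrecan and versican. ADAMTS1 is also known as an inhibitor of blood vessel growth, and ADAMTS5 as the main aggrecan-cutting enzyme of mouse cartilage. EGF signals through a receptor tyrosine kinase to the ERK cascade, and acinar cells under such signals are known to lose acinar features and turn duct-like.

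In the RefSeq annotation of another mouse build, GRCm38.p6, Adamts1 and Adamts5 follow each other with no protein-coding gene between them. Cyyr1 is the protein-coding gene before them, and N6amt1 the next one after. Between Adamts5 and N6amt1 that annotation lists 7 long noncoding RNA genes and 1 pseudogene. The region was defined with Adamts1 near 85.79 Mb and Adamts5 from about 85.86 to 85.90 Mb of mm9. Those positions are approximate, and no mm9 annotation was used to place peaks in exons, introns or promoters.

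The promoter of Adamts1 is shown because it is the promoter of the pair that the sequence table used here holds, and because control replicate 2 had 2 peaks near that gene. These are the 250 bases before the start of Adamts1 at chr16:85803114-85803363 of GRCm38.p6, on the minus strand, from RefSeq. Capitals mark matches to GGGCGG, the core of a GC box, and to TATAAA, the core of the TATA box. Whether any mm9 peak covers these bases was not tested, since the builds differ.
Adamts1 promoter: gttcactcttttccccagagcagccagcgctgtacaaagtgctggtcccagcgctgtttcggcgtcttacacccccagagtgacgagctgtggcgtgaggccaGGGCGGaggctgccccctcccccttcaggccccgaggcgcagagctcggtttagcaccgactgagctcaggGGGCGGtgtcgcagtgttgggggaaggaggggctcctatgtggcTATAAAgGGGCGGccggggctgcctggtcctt

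The window was 65.6% G and C, against a median of 52.4% over the 32851 promoters of the table. On either strand, GGGCGG was found 3 times, and 32.7% of all promoters hold it. TATAAA was found once, beginning 32 bases before the start, and 12.4% of promoters hold it. The AP-1 sequence TGAGTCA was not among these letters, and 4.46% of promoters hold it. These matches are descriptions of the letters and not measured binding sites.

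Peak strength is given in 3 ways. The number of ChIP reads that cover a summit was recovered from the deposited fold and −log10 p of each peak. Divided by the mean coverage of the library, it is a multiple of the genome-wide mean. For control replicates 1 and 2 that mean was 1.18 and 1.14 reads per 200 bp, and for EGF replicates 1 and 2 it was 1.06 and 1.23. Divided by the input background at the summit, after scaling to the input, it is a multiple of the local input. Genome-wide, the input of each control list was 0.771 reads per 200 bp, and that of each EGF list 0.506. This difference in input follows the treatment, and the effects of the 2 on which peaks were called cannot be told apart.

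ARID1A peaks of the region were more numerous in the control lists than in the EGF lists, as in the whole lists. A control list held 17 peaks on average and an EGF list 1.5, a log2 ratio of −3.50 from lists of 10 and 24 against 2 and 1. Over the whole genome the fall was larger, from a mean of 5571.5 peaks to 38.5 (log2 −7.18). The share of a list that fell in the region was thus 0.248% for control replicate 1, 0.337% for control replicate 2, 3.51% for EGF replicate 1 and 5% for EGF replicate 2. The region was chosen for a site in all 4 lists, so nothing is read from that rise in share. In windows of the same length laid along the genome, the median window held 1 peak of control replicate 1 and 2 peaks of control replicate 2. At least as many peaks as here were held by 4.16% of windows for control replicate 1 and by 1.29% for control replicate 2. For EGF replicates 1 and 2 the median window held no peak, and 0.245% and 1.16% of windows held as many peaks as here. The region was chosen for control and EGF peaks that it holds, so nothing is read from these window shares either. The peaks were unevenly placed. None lay in the last 300 kb of the region in any list, while the first 300 kb held 1 peak of control replicate 1 and 6 of control replicate 2. No further EGF peak lay nearby: the nearest one before the region was at 66901028-66901254, in EGF replicate 2, and the nearest one after it at 96076950-96077154, in EGF replicate 1, both on the same chromosome.

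**Figure D1:**
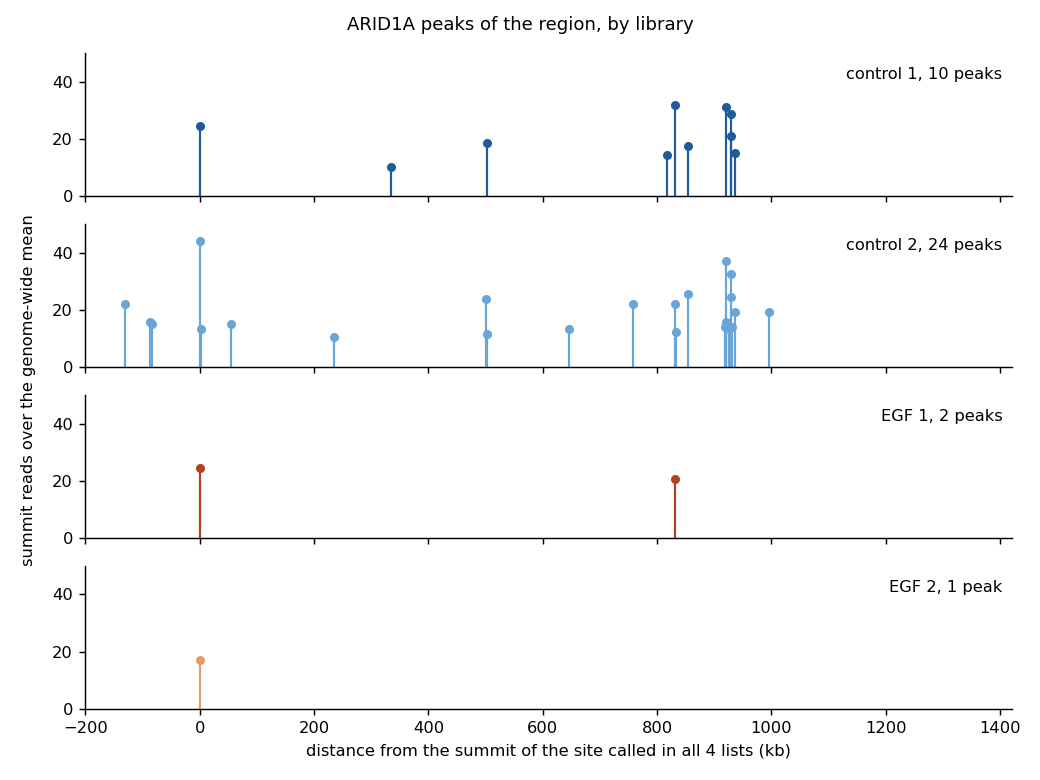
Summit reads as a multiple of the genome-wide mean (vertical axis) for every peak of the region, by distance in kb from the summit of the site called in all 4 lists (horizontal axis), with 1 panel per library. The 2 EGF panels hold 2 peaks and 1 peak, at 0 kb and, in EGF replicate 1 alone, at the place called in 3 lists, while the densest control peaks lie 921 kb and further from the site.

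Of the 10 peaks of control replicate 1 in the region, 8 overlapped a peak of control replicate 2 (80%, exact 95% interval 44.4% to 97.5%, counting error only), against 71.3% of its whole list. In the other direction 9 of 24 peaks (37.5%, interval 18.8% to 59.4%) were shared, against 40.4% of the whole list. The shared peaks include the site and the group for which the region was chosen. Nothing is therefore read from these shares beside those of the whole lists. Of the 8 shared control peaks, 2 were also called with EGF (25%, interval 3.19% to 65.1%), where 2.05% of all shared control peaks were. The region was chosen for 1 of these 2 peaks, so nothing is read from that difference. Both of the 2 were in EGF replicate 1, where 1.91% of all shared control peaks were called, and 1 was in EGF replicate 2, where 0.696% were.

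The site called in all 4 lists lay within the approximate span of Adamts5. Its peak was at chr16:85887837-85888313 in control replicate 1, 85887826-85888382 in control replicate 2, 85887724-85888099 in EGF replicate 1 and 85887998-85888210 in EGF replicate 2. The EGF peaks were narrower, at 376 and 213 bp against 477 and 557 bp, and the median widths of the whole lists were also lower with EGF, at 224 and 238 bp where both control lists have 288 bp. Within its list the EGF replicate 1 peak was wider than 97.4% of peaks, and the EGF replicate 2 peak wider than 10% of them. The EGF peaks overlapped each other by 102 bp. Their summits lay 171 bp apart, and the 2 control summits 132 bp apart. Across the groups, the EGF replicate 1 summit lay 5 bp from that of control replicate 1, and the EGF replicate 2 summit 34 bp from that of control replicate 2.

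The summit of this site held 29 ChIP reads in control replicate 1, 50 in control replicate 2, 26 in EGF replicate 1 and 21 in EGF replicate 2. Control replicate 2 stood above the other 3 libraries, and both EGF values were under both control values. Over the genome-wide mean of each library, the values were 24.5 in control replicate 1, 44.1 in control replicate 2, 24.5 in EGF replicate 1 and 17.0 in EGF replicate 2. On this scale control replicate 1 and EGF replicate 1 were equal to 3 digits, so the groups touched. The group means were 34.3 ± 13.8 in control cells and 20.8 ± 5.27 with EGF (SD, n = 2 each), 0.606 times the control mean (log2 −0.72).

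Counting error alone allows 16.4 to 35.2 times the mean in control replicate 1, 32.7 to 58.1 in control replicate 2, 16.0 to 35.9 in EGF replicate 1 and 10.5 to 26.0 in EGF replicate 2 (exact 95% Poisson intervals). The interval of control replicate 2 overlaps those of control replicate 1 and EGF replicate 1 but not that of EGF replicate 2. Each summit had to be called in its own list, and the summits lie up to 171 bp apart, so this is no test between libraries. The difference between the group means was smaller than the SD of the control group. The design of 2 against 2 libraries allows no exact permutation p under 0.333.

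The local input of this site differed far more than the ChIP reads. It was 4.0 and 2.4 reads per 200 bp at the summits of control replicates 1 and 2, and 0.56 at both EGF summits. These are 5.19, 3.11, 1.11 and 1.11 times the genome-wide input. The control values are multiples of 0.2, the value of 1 input read in 1 kb, and the EGF value is not. This points to windows of unlike length, with few input reads behind the control values. No interval was computed for these inputs. The 2 control values are high in their lists, above 98.7% and 92.9% of peaks with ties split equally, and the EGF values low, above 16.7% and 12.5%. Divided by the local input, the summit stood at 4.72 in control replicate 1, 14.2 in control replicate 2, 22.1 in EGF replicate 1 and 15.4 in EGF replicate 2. On this scale both EGF libraries were above both control libraries, and the EGF mean was 1.99 times the control mean (log2 0.99). The 2 lists of a group had the same genome-wide input (0.771 for control, 0.506 for EGF), so they may share 1 input library. The local inputs of a group are therefore not taken as 2 independent values. The deposited fold, which adds 1 to both sides of the ratio, was 3.98, 10.3, 8.58 and 6.17 in the same order, with overlapping groups and a log2 ratio of 0.048. The direction of the EGF difference at this site therefore depends on the scaling.

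The rank of the site differed as much between libraries as between groups. By score it was number 52 of 7112 peaks of control replicate 2 but number 2960 of 4031 of control replicate 1. It was number 16 of 57 in EGF replicate 1 and number 19 of 20 in EGF replicate 2. Its −log10 p in EGF replicate 2 was 8.04, where the lowest value of that list was 8.00, and its 21 reads are the fewest at any summit of that list.

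A further place was called in 3 of the 4 lists. It lay at chr16:86719567-86720099 in control replicate 1, 86719611-86720035 in control replicate 2 and 86719730-86719929 in EGF replicate 1, in the gene-poor part of the region. A second peak of control replicate 2, at 86720098-86720297 with 14 reads, touches the control replicate 1 peak by 2 bp. The main summit held 38 reads in control replicate 1, 25 in control replicate 2 and 22 in EGF replicate 1, or 32.1, 22.0 and 20.7 times the genome-wide mean. Here control replicate 1 was the highest, and EGF replicate 1 lay just under control replicate 2.

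The input at this place was 1.08 reads per 200 bp at both control summits, 1.40 times the genome-wide input, and 0.506 at the EGF summit, the genome-wide level. Over the local input the values were 22.9, 15.7 and 20.7, so EGF replicate 1 lay between the control libraries. By score the peak was number 29 of the control replicate 1 list and number 686 of the control replicate 2 list. EGF replicate 2 has no value here, because the lists hold values at called peaks alone.

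The group absent from both EGF lists lay about 90 kb further on, at chr16:86808909-86824387, and 921 kb from the 4-list site. It is made of 4 peaks of control replicate 1 that each overlap a peak of control replicate 2, chained at gaps of at most 50 kb. In control replicate 1 they were at 86808976-86809916 with 37 reads, 86816269-86816983 with 34 reads, 86817109-86817580 with 25 reads and 86823485-86823991 with 18 reads. In control replicate 2 the shared peaks were at 86808909-86809939 with 42 reads, 86816321-86816651 with 28 reads, 86816837-86817630 with 37 reads and 86823923-86824387 with 22 reads. The first peak held the most reads of the group in both libraries, and the last one the fewest.

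The pairing inside the group is not 1 to 1. The second peak of control replicate 1 overlaps the second and the third peak of control replicate 2, and the fourth peaks overlap by 69 bp alone. Control replicate 2 had 5 further peaks in or within 2 kb of the group that control replicate 1 lacked, 9 in all against 4. The summits of the first peaks were 9 bp apart, the closest match in the group.

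**Figure D2:**
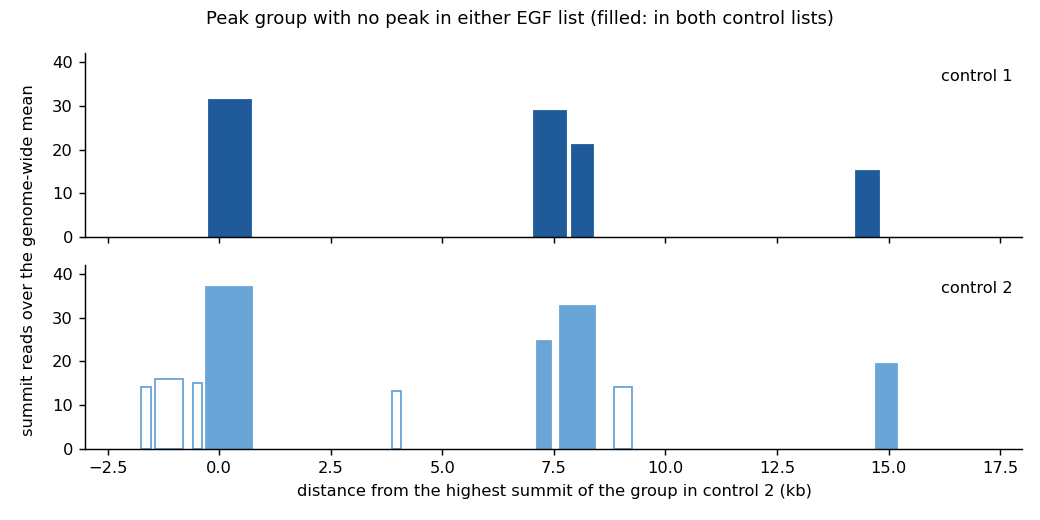
Peaks of the group absent with EGF, as bars from start to end along distance in kb from its highest summit in control replicate 2, with the height showing summit reads over the genome-wide mean. Filled bars are in both control lists, and open bars in 1; control replicate 2 shows 9 bars and control replicate 1 shows 4, with the tallest bar at 0 kb in each.

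In control cells, the strength of the 4-list site relative to the group differed between the libraries. In control replicate 1 the site stood at 24.5 times the genome-wide mean, and the group's peaks from 15.2 to 31.2 with a median of 24.9. In control replicate 2 the site stood at 44.1, and the group from 19.4 to 37.0 with a median of 28.6. The log2 ratio of the site to the group's median was −0.025 from control replicate 1 and 0.62 from control replicate 2, with a mean of 0.30. Over the local input it was −0.71 and 1.08. In control replicate 2 the site was thus above the group's median on both scales, but over the local input the group's first peak, at 23.8, was above the site, at 14.2. In control replicate 1 it was level with the group's median by the genome-wide mean and lower over the local input.

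The 2 places also shared a raised input in control cells. At the group the local input was 3.0, 3.0, 3.0 and 1.4 reads per 200 bp at the 4 summits of control replicate 1, and 1.2, 4.0, 3.0 and 3.0 at those of control replicate 2. The list medians were 1.04 and 1.08. Over the local input, the group's peaks had a median of 7.71 and 6.68 in control replicates 1 and 2, under the medians of 10.4 and 10.2 of the whole lists. The first peak in control replicate 2 was the exception, with the lowest input of the group. The input of the EGF group at these summits is not known, because neither EGF list has a peak there.

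**Figure D3:**
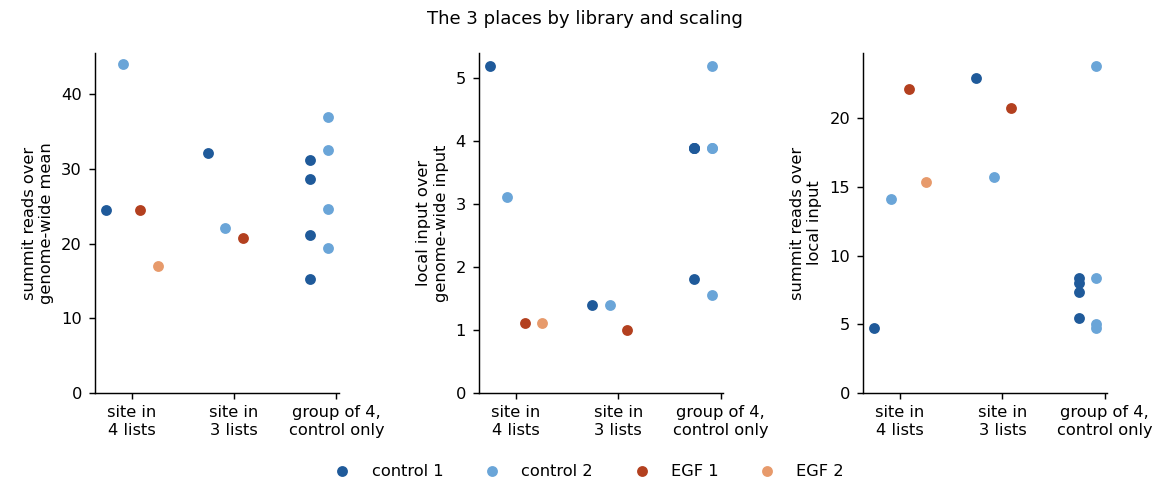
Summit reads over the genome-wide mean, local input over the genome-wide input and summit reads over local input (panels) at the 4-list site, the 3-list site and the 4 shared peaks of the group, with 1 point per peak coloured by library, from 2 control and 2 EGF libraries; points at the same value overlap. At the 4-list site the EGF points lie at 1.11 times the genome-wide input and the control points at 5.19 and 3.11, while EGF has no point for the group.

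The peaks of the group were wide. Their widths ran from 472 to 941 bp in control replicate 1 and from 331 to 1031 bp in control replicate 2, with medians of 611 and 629.5 bp against 288 bp in each whole list. The group holds shared peaks alone, and over all shared control peaks the median widths were 318 and 372 bp. The first peak was wider than 99.4% and 99.5% of the peaks of the 2 lists. The 4-list site was 477 and 557 bp wide, wider than 86.6% and 91.1%. Its reads exceeded those of 91.1% and 99.7% of peaks, and those of the group's first peak 97.7% and 99.0%. By the deposited fold the site ranked far lower in control replicate 1. In control replicate 2 the site and the group's first peak stayed high, but not the rest of the group. The site exceeded 2.93% of the peaks of control replicate 1 and 97.1% of those of control replicate 2, and the group's first peak 61.5% and 99.6%. The group's later shared peaks exceeded 49.3%, 7.22% and 30.2% of the peaks of control replicate 1. In control replicate 2 they exceeded 5.44%, 68.7% and 5.05%.

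**Figure D4:**
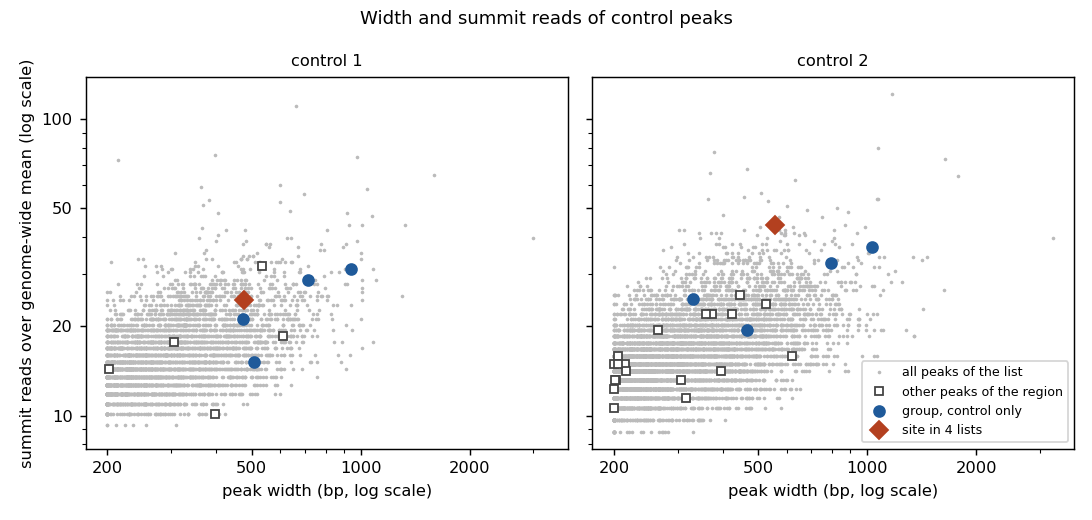
Peak width in bp against summit reads over the genome-wide mean, both on log scales, for all peaks of control replicate 1 (left, 4031) and control replicate 2 (right, 7112), with the peaks of the region marked. The wide peaks of the group reach 941 and 1031 bp, and the 4-list site rises from 24.5 in the left panel to 44.1 in the right one.

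Whether the control peaks were strong enough to be listed under the settings of the EGF lists was calculated, a step chosen after the data were seen. Each control summit kept its multiple of the genome-wide mean and of the genome-wide input, and its −log10 p was computed at the EGF input of 0.506. The lowest −log10 p was 7.07 in the EGF replicate 1 list and 8.00 in the EGF replicate 2 list. Those are the weakest listed peaks and not the bounds of the calls. The 4 peaks of the group came to 9.42, 8.50, 5.15 and 5.25 from control replicate 1 and to 19.4, 5.40, 10.4 and 4.39 from control replicate 2. In each library 2 of the 4 thus reached both values, and the first peak did so in both libraries. With the input at its genome-wide level instead, all 4 reached 7.07 from either library, and 3 and 4 of them reached 8.00.

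The same calculation gave 5.40 and 18.5 for the 4-list site, from control replicates 1 and 2. The deposited values of that site were 13.3 in EGF replicate 1 and 8.04 in EGF replicate 2. From control replicate 1 the site fell short, although both EGF lists hold it, with a local input there of 1.11 times the genome-wide level against 5.19 in control replicate 1. The 3-list site came to 17.4 and 10.8, and its deposited value was 11.1 in EGF replicate 1.

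For counts over shared peaks, each shared peak of control replicate 1 was given the highest-scoring control replicate 2 peak it overlaps. The second and the third peak of the group then both take the third peak of control replicate 2, at 10.4. Counted so, of the 8 shared control peaks of the region, 4 reached the lowest value of EGF replicate 1 from control replicate 1 and 7 from control replicate 2, against 41.6% and 58.1% of all shared control peaks. For EGF replicate 2 the counts were 3 and 7, against 27.3% and 42.6%. Over the whole lists 907 shared control peaks reached the value of EGF replicate 1 from both libraries, and 46 of them (5.07%) were called with EGF. In the region 4 did so: the 3-list site, the peak at 86741481 and the first and second peak of the group, of which the 3-list site was called with EGF.

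**Figure D5:**
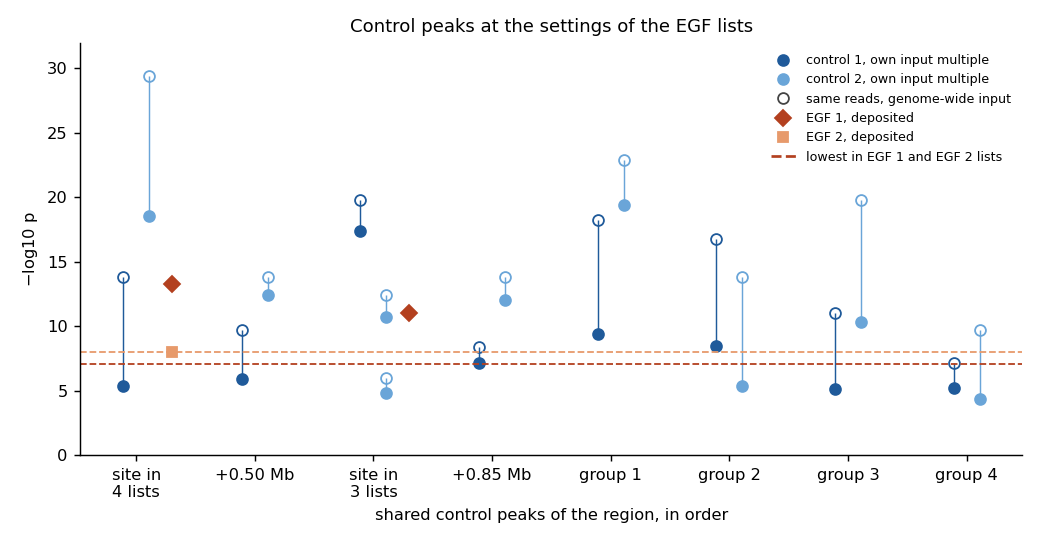
Calculated −log10 p (vertical axis) of the shared control peaks of the region at the settings of the EGF lists, in order along the chromosome, from control replicates 1 and 2 with their own input multiple (filled) and with genome-wide input (open). Diamonds and the square are the deposited EGF values, and the dashed lines the lowest values of the EGF lists, 7.07 and 8.00; the first peak of the group lies above both lines in either library.

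The remaining 2 shared control peaks lay between the 2 places. The peak at chr16:86389127-86389737 in control replicate 1 and 86389203-86389727 in control replicate 2 held 22 and 27 reads, 18.6 and 23.8 times the genome-wide mean. The peak at 86741481-86741786 and 86741445-86741889 held 21 and 29 reads, 17.7 and 25.5 times the mean. Both were higher in control replicate 2, and neither was in an EGF list. At the settings of the EGF lists the first came to 5.90 and 12.4, and the second to 7.18 and 12.0.

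Peaks of 1 control list alone held fewer reads at the median than the shared ones. Control replicate 1 had 2 of them, at 86222813-86223208 with 12 reads and at 86705142-86705343 with 17 reads. Control replicate 2 had 15, with 12 to 25 reads and a median of 17, against a median of 28 for its 9 shared peaks. The shared peaks include those for which the region was chosen. In the whole lists the median was 20 reads for shared peaks and 19 for all peaks of control replicate 1. For control replicate 2 these medians were 21 and 18. The highest of the 15 by score was at chr16:85756396-85756769, the first peak of the region, with 25 reads and a fold of 8.10. Near Adamts1, control replicate 2 alone had peaks at 85801282-85801487 with 18 reads and at 85804319-85804533 with 17 reads. Near the 4-list site it alone had a peak at 85890076-85890381, with 15 reads. So the only place near the Adamts genes found in both control lists was the 4-list site.

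The peaks just inside and outside the region were as follows. Before its start, the nearest control peaks outside were at 85673687-85673951 in control replicate 1, with 17 reads, and at 85034717-85034997 in control replicate 2, with 16 reads. After its end they were at 87433023-87433268 and 87432980-87433240, with 17 and 22 reads. The last peak of control replicate 1 inside was the last one of the group, and that of control replicate 2 was at 86882736-86883000, with 22 reads.

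Runs of shared control peaks with no EGF peak were common. Chained at gaps of at most 50 kb, control replicate 1 had 51 runs of 4 or more shared peaks, and 5 of these runs held a peak also called with EGF. Control replicate 2 had 48 such runs, and 5 held one. The group here was shorter than most, at 15.0 and 15.5 kb against medians of 50.1 and 54.3 kb. Of the 51 runs 5 were as short or shorter, the group itself included, and 2 of the 48, and none of these held an EGF peak. Runs with no EGF peak were thus the more frequent ones. Of all shared control peaks, counted in control replicate 1, 2.05% were called in any EGF list. Nothing about this group is therefore read from the counts of runs. The absence with EGF also depends on the gap: chained at up to 100 kb, the group grows to 6 peaks of control replicate 1 and 7 of control replicate 2, and takes in the 3-list site that EGF replicate 1 holds.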

How the data were processed

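The submitters' processing notes name the build mm9, MACS2 2.1.1.20160309.0 and Bowtie2 2.3.4.2, beside deepTools 3.0.2 and SAMtools; options were not given in the sources used here. Each library has 1 peak list, which the authors deposited in the 10 columns of MACS2. As deposited, the score equals the −log10 q times 10, rounded down. The deposited fold is a ratio of summit reads to local background with 1 added to each, with −log10 p and −log10 q as deposited for that summit. Positions are printed counted from 1.

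Whole reads and the local input were recovered from fold and p in 100% of the peaks of each list, within 2e-04 of −log10 p, with 1 solution each (Python 3.11.15, scipy 1.17.1). The recovery returned 100% of the peaks of 3 simulated lists of 1000, 60 and 20 peaks. Those lists were made with the formulas that the recovery assumes, and the list of 20 was given its true genome-wide input. They check the calculation and not whether the formulas hold for the deposited lists. For the second list of each group, the genome-wide input of the first was tried first. The input is the largest of the genome-wide level and of counts in windows, which the values place at 1 kb and 10 kb and, added here, at the 200 bp of an extended read. Peaks sharing 1 bp or more were counted as overlapping. Every shared or EGF peak of the region was to be named, with the others given by range. The members, lists and alternatives were chosen with earlier results of these data known. No test was run, since the region was chosen on these lists. Replicate numbers are not known to pair libraries. No mm9 sequence or annotation was used here. Intervals cover counting error only.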

Additional observations from a re-analysis of the deposited data

How the results depend on the processing

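The 5 results were recomputed under 34 alternatives in all: 30 values kept their sign and stayed within 1 SD or the exact interval, 1 moved and 3 changed sign. The log2 ratio of summit reads at the 4-list site, −0.72 over the genome-wide mean, was 0.99 over the local input and 0.048 by the deposited fold, and lay between −1.09 and −0.24 when any 1 library was omitted. The site against the group in control cells, 0.30, ran from −0.025 without control replicate 2 to 0.62 without control replicate 1, so its sign rests on control replicate 2. The share of region peaks in both control lists, 80%, was 37.5% when counted on the longer list of control replicate 2, an alternative added after the data were seen. For peak number the log2 ratio of −3.50 became −4.09 without EGF replicate 1 and −2.74 without control replicate 2, the ends of its range. The share of shared control peaks called with EGF, 25%, was 12.5% without EGF replicate 1, and 16.7% with 50% of both peaks shared. With 1 control library omitted, no peak can be shared, and the share was taken of all region peaks of the other library. So counted, it was 8.33% of the 24 peaks of control replicate 2 and 20% of the 10 peaks of control replicate 1. With the replicate block, the log2 ratios were −3.45 for peak number and −0.69 for summit reads at the site. That block goes by replicate number, which is not known to pair libraries. With 2 libraries per group a difference under the spread of the control libraries cannot be seen, and the reads needed for the lowest listed −log10 p at the genome-wide input were 10 and 9 for the control libraries, against 15 and 20 with EGF. Both that lowest value (4.43 and 4.25 against 7.07 and 8.00) and the input (0.771 against 0.506 reads per 200 bp) differ between the groups.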

Other observations

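Many of the raised local input values of the region rest on few input reads. Others, such as 1.08 at the control summits of the 3-list site and 0.56 at the EGF summits of the 4-list site, are not multiples of 0.2. Those point to the 10 kb window. Of the raised inputs in the control lists, 46.4% and 47.3% were whole numbers, and a further 27.3% and 27.6% were other multiples of 0.2, the value of 1 read in 1 kb. A whole number is the value of reads stacked over the summit itself, or of 5 times as many in 1 kb. At the first peak of the group, 9 bp separate the summits of the control lists, and the input there was 3.0 in one and 1.2 in the other. Among all overlapping control peaks the input was the same in 19 of 19 pairs with the same summit, in 235 of 255 pairs (92.2%) with summits 1 to 10 bp apart, and in 241 of 670 pairs (36.0%) with summits over 100 and up to 200 bp apart. The 2 control summits of the 4-list site, 132 bp apart with inputs of 4.0 and 2.4, fall in the last class. Across the groups, the summits of control replicate 1 and EGF replicate 1 at this site were 5 bp apart, with inputs of 5.19 and 1.11 times the genome-wide input, and those of control replicate 2 and EGF replicate 2 were 34 bp apart, with 3.11 and 1.11 times. The EGF summits, 171 bp apart, had the same input, a value that points to the 10 kb window, most of which both summits share. The control input was thus the higher one also at a nearly identical position.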
